A study of Homo sapiens with 7 samples.

Results

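A set of 10 markers of the epithelial and the mesenchymal state were followed upon the depletion of IGF2BP1 in Huh-7, a hepatocellular carcinoma cell line. IGF2BP1 is an oncofetal protein that binds and stabilizes mRNAs. The markers were taken by symbol from the deposited table, which held each of the 10 once among its 58174 genes. They comprise the epithelial genes CDH1, KRT8, KRT18, KRT19, EPCAM and CLDN1 and the mesenchymal genes CDH2, VIM, SNAI2 and ZEB1. Total RNA-seq was available 72 h after transfection of control siRNA (siC, 3 libraries) or of a siRNA pool against IGF2BP1 (siIGF2BP1, 4 libraries), both in the same unmodified line grown in DMEM with serum. Abundance is given as FPKM, fragments scaled to gene length and to the size of the library, and changes are siIGF2BP1 minus siC on the scale of log2(FPKM + 0.1). The labels do not say whether libraries of a group came from separate cultures, so p-values measure the spread between libraries.

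Epithelial cells are held together by E-cadherin (CDH1) and claudins and carry simple keratins in their cytoskeleton. Mesenchymal cells carry N-cadherin (CDH2) and vimentin (VIM), and the transition between both states is driven by the repressors SNAI1, SNAI2, ZEB1 and ZEB2 and the TWIST factors, which bind E-boxes in epithelial promoters. Hepatocytes are epithelial cells that express KRT8 and KRT18 and, unlike most epithelia, CDH2 beside CDH1. KRT19 and EPCAM mark bile duct and progenitor cells of the liver and are retained in a subset of hepatocellular carcinomas.

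IGF2BP1 was at 19.2% of its siC mean in siIGF2BP1 (log2 change -2.37, limma adjusted p = 1.16e-05), and SRF, the transcript the study followed, at 48.4%. Libraries held from 12826550 to 33212205 reads on genes. The siC replicate 3 library stood apart from the other siC libraries. Over 10653 protein-coding genes, which are not independent replicates, the SD of its log2 distance from the other libraries of its group was 0.444, against 0.112 to 0.267 in the other 6 libraries. The distance was related to the GC content of the transcript. Distances within a group sum to 0 by construction, so a deviating library gives the others the opposite sign. The values of a group are thus not independent. Spearman's rho across genes was 0.575, 0.437 and -0.555 in siC replicates 1 to 3 and 0.0150, -0.490, 0.384 and 0.298 in siIGF2BP1 replicates 1 to 4, so that siC replicate 3 and siIGF2BP1 replicate 2 were the libraries with a negative sign. The change of each marker, and of the list genes named beside them, is therefore given with and without siC replicate 3. The markers of hepatocytes were as the cell line's label says, with ALB from 1705 to 2042 FPKM and AFP from 2611 to 3450 FPKM over the 7 libraries. Of the lists of other cell types, some genes were near 0 and others were expressed. PTPRC, CD3E and CD68 of leukocytes, KDR, TEK and VWF of endothelium and DCN, THY1 and FAP of fibroblasts reached at most 0.0285 FPKM in any library. LYZ of leukocytes ran from 113 to 162 FPKM, CD14 from 0.462 to 2.66 FPKM, LUM, PDGFRA and COL1A2 of fibroblasts from 5.44 to 8.09, 2.31 to 3.93 and 0.710 to 1.46 FPKM, and PECAM1 of endothelium from 2.58 to 3.29 FPKM.

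Of the 10 markers, 9 reached an average of 1 FPKM over the libraries and entered the test among 14839 genes. None of the 9 was lower or higher at a limma adjusted p of 0.01, while 5 (KRT18, CLDN1, KRT8, CDH1 and VIM) were lower and 0 higher when an unadjusted p under 0.05 was asked for. Over all genes tested, 2.28% were lower and 1.65% higher at the adjusted threshold, and 14.8% were lower at the unadjusted one (2200 genes, with 1638 higher). All 9 had a negative log2 change, with a median of -0.43 against -0.017 over all genes tested. CDH1, KRT8, KRT18 and CLDN1 were lower in every siIGF2BP1 library than in any siC library, which held for 15.1% of the genes tested (11.9% were higher without overlap). Without siC replicate 3, 5 of the 9 were called lower (KRT18, CLDN1, CDH1, KRT8 and KRT19) and 0 higher, against 6.67% lower and 3.59% higher of all genes. The siC group of that fit held replicates 1 and 2 alone, and leaving out the library that deviated most narrows the spread. For KRT19 the standard error went from 0.205 to 0.0762. The same 5 were called when siIGF2BP1 replicate 2 was left out as well, against 7.03% of all genes. Leaving out any of the other 6 libraries called 0 of the 9. CDH2, VIM, ZEB1 and EPCAM passed the threshold in neither fit, although the log2 change of VIM without siC replicate 3 (-0.60, limma adjusted p = 0.0299) was larger in size than those of CLDN1 and KRT19. A difference between the epithelial and the mesenchymal markers was not tested.

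**Figure D1:**
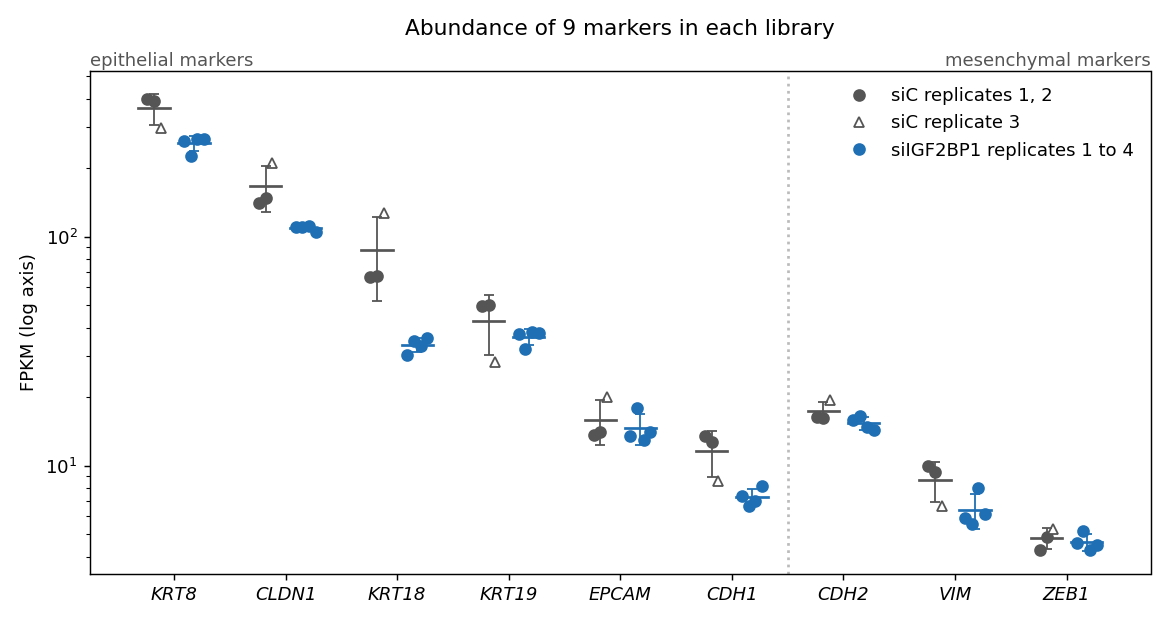
FPKM on a log axis of the 9 tested markers in each library, with siC in grey (replicate 3 as an open triangle), siIGF2BP1 in blue, horizontal lines for means and error bars for SD (n = 3 and 4). The groups do not overlap for KRT8, CLDN1, KRT18 and CDH1, and siC replicate 3 lies away from the other siC libraries for each of these.

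Promoters were examined for E-boxes, the element of SNAI and ZEB factors and of many other proteins. RefSeq's table (build GRCh38.p14) held entries for 5 of the 10 markers (KRT8, CLDN1, VIM, ZEB1 and CDH2) and none for CDH1 or KRT18. The 250 bases before the start were searched on both strands for CANNTG, for CACCTG (a form of CANNTG) and for the CArG box of SRF. Of 35116 promoters in the table, 61.8% held CANNTG, 17.5% CACCTG and 1.16% a CArG box. Shown are KRT8 and CLDN1, which were lower without overlap, VIM, and 1 of the ZEB1 entries with CACCTG, read 5′ to 3′ on the gene's strand and with CANNTG in capitals. They lie at chr12:52926470-52926719 (KRT8, minus strand, a start inside the annotated gene), chr3:190322447-190322696 (CLDN1, minus strand), chr10:17227991-17228240 (VIM, plus strand) and chr10:31318167-31318416 (ZEB1, plus strand).
KRT8: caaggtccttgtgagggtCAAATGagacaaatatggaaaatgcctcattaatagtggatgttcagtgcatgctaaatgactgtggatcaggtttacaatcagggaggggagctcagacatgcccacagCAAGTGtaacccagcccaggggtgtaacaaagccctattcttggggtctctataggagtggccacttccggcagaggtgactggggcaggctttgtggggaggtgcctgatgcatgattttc
CLDN1: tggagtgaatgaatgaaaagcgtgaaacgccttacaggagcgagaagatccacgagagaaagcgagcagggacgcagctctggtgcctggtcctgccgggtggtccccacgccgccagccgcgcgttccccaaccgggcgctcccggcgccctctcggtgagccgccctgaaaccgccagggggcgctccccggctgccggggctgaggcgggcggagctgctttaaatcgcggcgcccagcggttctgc
VIM: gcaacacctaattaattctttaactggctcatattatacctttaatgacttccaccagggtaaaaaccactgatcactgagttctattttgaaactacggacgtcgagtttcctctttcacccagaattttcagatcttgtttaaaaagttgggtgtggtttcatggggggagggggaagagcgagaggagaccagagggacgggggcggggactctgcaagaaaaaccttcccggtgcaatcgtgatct
ZEB1: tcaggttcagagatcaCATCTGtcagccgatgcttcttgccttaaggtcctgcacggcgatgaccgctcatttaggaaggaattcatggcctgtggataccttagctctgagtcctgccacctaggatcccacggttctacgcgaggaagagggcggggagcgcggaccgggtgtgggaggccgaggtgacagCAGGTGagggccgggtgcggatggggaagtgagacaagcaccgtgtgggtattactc
KRT8 held CANNTG at -232 and -122, counted from the start to the first base of the motif, and CLDN1 and VIM held none. The ZEB1 entry held it at -234 and, as CAGGTG, the reverse complement of CACCTG, at -57. No CArG box and no CACCTG was found in the KRT8, CLDN1 or VIM windows. Of the ZEB1 entries not shown, that at 31318966 held CACCTG and those at 31320304 and 31321410 held other CANNTG. The ZEB1 entries at 31318568, 31319518 and 31320951 held no CANNTG. Of the CDH2 entries, that at 28036642 held CANNTG at -97 and that at 28177131 held none. Both lie inside the annotated CDH2 gene (chr18:27932879-28177946, minus strand), that at 28036642 far from its start. The ZEB1 entries not shown also lie inside the annotated gene. A match is a description of these letters and says nothing on binding in Huh-7 cells.

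Keratins form filaments from pairs of an acidic and a basic partner, and KRT8 (basic) with KRT18 (acidic) is the pair of the hepatocyte. KRT18 (ENSG00000111057, GRCh38 chr12:52948871-52952906, plus strand) was at 66.5, 67.2 and 127 FPKM in siC replicates 1 to 3. In siIGF2BP1 it was at 30.4, 34.9, 33.4 and 35.9 FPKM in replicates 1 to 4. The highest siIGF2BP1 library was thus below the lowest siC library, and siC replicate 3 was at 190% of the mean of the other siC libraries. Averages were 86.9 ± 34.7 FPKM (SD, n = 3) for siC and 33.7 ± 2.43 FPKM (SD, n = 4), or 38.7% of siC. The log2 change was -1.30 (95% confidence interval -1.84 to -0.76, limma adjusted p = 0.0139). Leaving out siC replicate 3, KRT18 was called lower with a log2 change of -0.99 (interval -1.16 to -0.82, limma adjusted p = 0.000628), to 50.3% of the remaining siC mean. With voom on reads recovered from the FPKM values KRT18 was the one marker called lower with all 7 libraries (log2 change -1.31, adjusted p = 0.00469), against 3.30% of all genes.

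KRT8 (ENSG00000170421, chr12:52897187-52949954, minus strand) was the most abundant of the markers, above 99.4% of the tested genes in siC. It was at 400.1, 390 and 297 FPKM in siC replicates 1 to 3 and at 262, 226, 268 and 268 FPKM in siIGF2BP1 replicates 1 to 4. All siIGF2BP1 libraries were lower than all siC libraries, and siC replicate 3 was here the lowest of its group, opposite to KRT18. Averages were 362 ± 56.6 FPKM (SD, n = 3) for siC and 256 ± 20.1 FPKM (SD, n = 4) for siIGF2BP1, and the log2 change was -0.49 (interval -0.79 to -0.19, limma adjusted p = 0.0505). KRT8 was called lower once siC replicate 3 was left out (log2 change -0.63, interval -0.82 to -0.44, limma adjusted p = 0.00342). With the dependence on GC content taken out of each library, KRT8 was called lower with all 7 libraries (log2 change -0.47, limma adjusted p = 0.00697). The main fit called 2.28% of all genes lower, and the fit without the GC trend called more. KRT8 and KRT18 are neighbours whose annotated exons overlap on opposite strands, and the strand setting of the counting is not given in the sources used here, so reads in the shared stretch are uncertain.

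Both genes also have many processed copies. The table listed 50 KRT8 pseudogenes, of which 38 had reads, and 67 KRT18 pseudogenes, of which 37 had reads. Reads on the KRT8 copies came to 2.04% of those on KRT8, and reads on the KRT18 copies to 10.8% of those on KRT18. In siC the KRT18 copies held from 7.73% to 9.46% of the reads of KRT18 per library, and in siIGF2BP1 from 14.1% to 17.5%. The copies with the most reads had log2 changes of -0.39 (KRT8P3), 0.032 (KRT8P46), -0.44 (KRT18P15) and -0.22 (KRT18P31), with limma adjusted p = 0.0525, 0.948, 0.280 and 0.614. How aligned reads were divided between a gene and its copies was not tested.

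KRT19 (ENSG00000171345, chr17:41523617-41528308, minus strand), the acidic keratin of bile ducts, was at 49.9, 50.2 and 28.3 FPKM in siC replicates 1 to 3, and at 37.5, 32.3, 38.4 and 37.8 FPKM in siIGF2BP1 replicates 1 to 4. The siIGF2BP1 libraries lay between siC replicate 3 and the other siC libraries, so the groups overlapped through this 1 library. The log2 change was -0.18 (interval -0.67 to 0.30, limma adjusted p = 0.641). With siC replicate 3 left out, KRT19 was called lower (log2 change -0.46, interval -0.64 to -0.27, limma adjusted p = 0.00878). KRT19 and KRT18 exchanged places in the order of the markers. The ratio of KRT18 to KRT19 in FPKM was 1.33, 1.34 and 4.48 in siC and 0.810, 1.08, 0.869 and 0.950 in siIGF2BP1. The ratio of KRT8 to KRT18 was 6.01, 5.79 and 2.34 in siC and 8.61, 6.46, 8.02 and 7.45 in siIGF2BP1. Neither ratio overlapped between the groups, and each had an exact two-sided permutation p = 0.0571 (adjusted p = 0.0762 over 4 ratios, which were chosen after the values were seen). This is the smallest p that 3 against 4 libraries can give. The ratio of VIM to KRT18, at 0.150, 0.139 and 0.0527 in siC and from 0.159 to 0.239 in siIGF2BP1, had the same p.

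A fixed list of 19 keratins gave the context of these genes. Of the 19, 8 were listed at 0 in every library, among them KRT7 of bile ducts, and 5 were tested, with a median log2 change of -0.49. All 5 had a negative log2 change. KRT8, KRT18 and KRT19 are among them, so the list is not separate from the markers and adds KRT10 and KRT23 to them. KRT23, an acidic keratin, was the one called lower with all 7 libraries, against 2.28% of all genes. It ran from 5.77 to 6.85 FPKM in siC and from 3.57 to 3.97 FPKM in siIGF2BP1 (log2 change -0.73, limma adjusted p = 0.00291). Of the 7 fits with 1 library left out KRT23 passed in 1, the one without siC replicate 3 (limma adjusted p = 0.00341). In that fit 4 of the 5 were called lower, which were KRT23 and the markers KRT8, KRT18 and KRT19, against 6.67% of all genes. The fifth, KRT10, was at 1.58, 1.82 and 4.30 FPKM in siC and from 1.44 to 1.93 FPKM in siIGF2BP1.

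CDH1 (ENSG00000039068, chr16:68737292-68835537, plus strand) encodes the cadherin of epithelial adherens junctions. It was at 13.5, 12.7 and 8.54 FPKM in siC replicates 1 to 3 and at 7.36, 6.67, 7.01 and 8.16 FPKM in siIGF2BP1 replicates 1 to 4. The groups did not overlap, although siC replicate 3 was the lowest of its group and close to the highest siIGF2BP1 library. Averages were 11.6 ± 2.66 FPKM (SD, n = 3) for siC and 7.30 ± 0.636 FPKM (SD, n = 4), or 63.1% of siC, and the log2 change was -0.63 (interval -1.02 to -0.25, limma adjusted p = 0.0510). CDH1 was called lower without siC replicate 3 (log2 change -0.84, interval -1.05 to -0.63, limma adjusted p = 0.00198), to 55.8% of the remaining siC mean.

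CDH2 (ENSG00000170558, chr18:27932879-28177946, minus strand), the N-cadherin, was at 16.4, 16.2 and 19.3 FPKM in siC replicates 1 to 3, and at 15.9, 16.5, 14.7 and 14.3 FPKM in siIGF2BP1 replicates 1 to 4. The groups overlapped, and the log2 change was -0.17 (interval -0.37 to 0.040, limma adjusted p = 0.287) with all libraries and -0.087 (interval -0.25 to 0.076, limma adjusted p = 0.397) without siC replicate 3. CDH2 exceeded CDH1 in every library. The ratio of CDH2 to CDH1 was 1.21, 1.28 and 2.26 in siC and from 1.76 to 2.48 in siIGF2BP1. It overlapped between the groups through siC replicate 3 (exact two-sided permutation p = 0.229, adjusted p = 0.229 over the 4 ratios).

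Among 18 classical cadherins of both types, 6 had a mean of at least 1 FPKM (CDH1, CDH2, CDH9, CDH12, CDH19 and CDH24). None was called with all libraries, at a median log2 change of -0.11, and CDH1 (lower) and CDH19 (higher) had an unadjusted p under 0.05. CDH19 averaged 0.908 FPKM in siC and 1.32 FPKM in siIGF2BP1. It met the filter through siIGF2BP1 alone, so its rise is not independent of the filter. CDH9 had the largest positive log2 change of the list, 0.58 (limma adjusted p = 0.198) and 0.82 without siC replicate 3 (limma adjusted p = 0.0406), at levels from 0.796 to 1.78 FPKM. CDH1 was the one cadherin of the 6 called lower without siC replicate 3, against 6.67% of all genes. CDH3 and CDH11, the placental and the mesenchymal cadherin, reached at most 0.0171 FPKM.

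CLDN1 (ENSG00000163347, chr3:190305707-190322446, minus strand) encodes a claudin of tight junctions. It was at 140.0, 148 and 210 FPKM in siC replicates 1 to 3 and at 110.3, 110.0, 111 and 105 FPKM in siIGF2BP1 replicates 1 to 4. All siIGF2BP1 libraries were lower than all siC libraries, and siC replicate 3 was the highest, at 146% of the other siC libraries. The log2 change was -0.58 (interval -0.91 to -0.25, limma adjusted p = 0.0405). CLDN1 was called lower without siC replicate 3 (log2 change -0.40, interval -0.51 to -0.30, limma adjusted p = 0.00222), to 75.7% of the remaining siC mean.

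EPCAM (ENSG00000119888, chr2:47345158-47387601, plus strand) encodes an adhesion molecule of epithelial progenitors. It was at 13.6, 13.9 and 19.9 FPKM in siC and at 13.5, 17.9, 12.9 and 13.98 FPKM in siIGF2BP1 replicates 1 to 4. The highest libraries were siC replicate 3 and siIGF2BP1 replicate 2, those with a negative relation to GC content, and the groups overlapped. The log2 change was -0.11 (interval -0.51 to 0.29, limma adjusted p = 0.752), and 0.070 (interval -0.25 to 0.39, limma adjusted p = 0.741) without siC replicate 3.

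Other junction genes were described from a fixed list of 32, of which 27 were tested. None was called with all libraries, and the median log2 change was 0.025, and 6 genes lower and 2 higher had an unadjusted p under 0.05 (2200 and 1638 of the 14839 genes tested). CLDN6, a claudin of embryonic epithelia, had the largest log2 change, -0.72 (limma adjusted p = 0.0132), and ran from 23.8 to 27.7 FPKM in siC and from 13.7 to 18.9 FPKM in siIGF2BP1. It was the 1 junction gene of the 27 called lower without siC replicate 3 (log2 change -0.78, limma adjusted p = 0.00909), against 6.67% of all genes. The median of the list was -0.061 in that fit. CLDN6 missed the threshold again when siIGF2BP1 replicate 2 was left out as well (limma adjusted p = 0.0161). TJP3, a scaffold of tight junctions, had a log2 change of -0.56 (limma adjusted p = 0.173), and of -0.82 without siC replicate 3 (limma adjusted p = 0.0140).

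Of 26 regulators and effectors of epithelial identity, 14 were tested and 0 were called with all libraries, at a median log2 change of -0.10. At an unadjusted p under 0.05, 5 were lower and 0 higher, against 2200 lower and 1638 higher of the 14839 genes tested. ESRP2, a splicing factor of epithelial cells, ran from 8.41 to 11.1 FPKM in siC and from 6.50 to 7.42 FPKM in siIGF2BP1, without overlap (log2 change -0.50, limma adjusted p = 0.0317). It was the 1 gene of the 14 called lower without siC replicate 3 (log2 change -0.61, limma adjusted p = 0.00435), against 6.67% of all genes. ST14, a membrane protease, had a log2 change of 0.46 (limma adjusted p = 0.244), and of 0.22 without siC replicate 3 (limma adjusted p = 0.345).

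**Figure D2:**
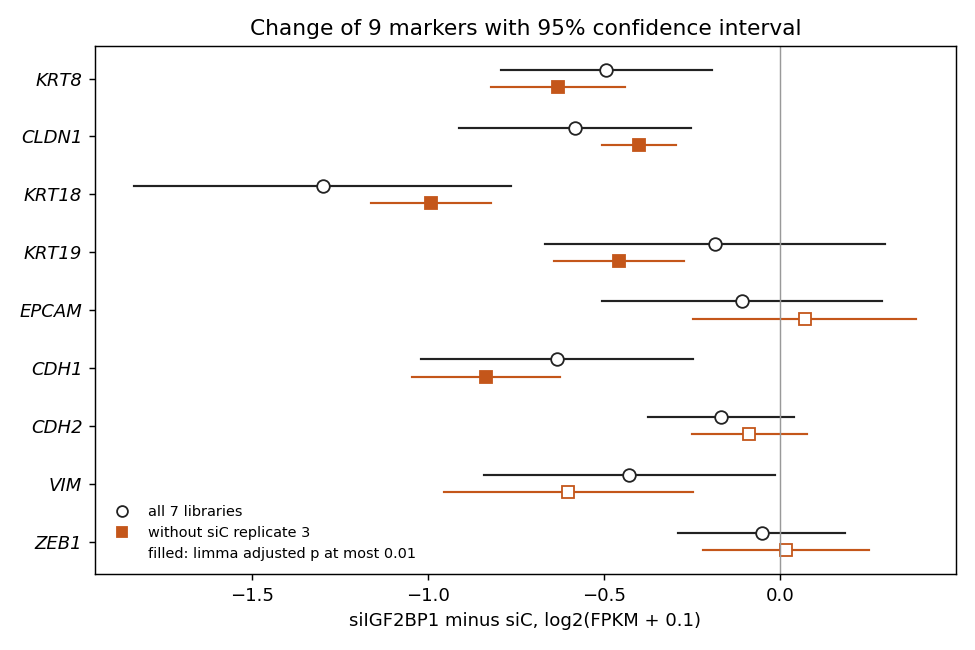
Change of the 9 tested markers, siIGF2BP1 minus siC in log2(FPKM + 0.1), with 95% confidence intervals for all 7 libraries (black circles) and without siC replicate 3 (orange squares), filled where the limma adjusted p is at most 0.01. No circle is filled, and the squares of KRT8, CLDN1, KRT18, KRT19 and CDH1 are.

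VIM (ENSG00000026025, chr10:17228241-17237593, plus strand) encodes the intermediate filament of mesenchymal cells. It was at 9.95, 9.34 and 6.69 FPKM in siC replicates 1 to 3 and at 5.88, 5.54, 7.99 and 6.12 FPKM in siIGF2BP1 replicates 1 to 4. The groups overlapped, since siIGF2BP1 replicate 3 exceeded siC replicate 3. The log2 change was -0.43 (interval -0.84 to -0.015, limma adjusted p = 0.180) with all libraries and -0.60 (interval -0.96 to -0.25, limma adjusted p = 0.0299) without siC replicate 3. It passed the threshold with array weights, which give libraries that deviate less weight (log2 change -0.55, limma adjusted p = 0.00139). In that fit 6 of the 9 markers were called lower, as were 21.9% of all genes.

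Among 13 genes of other intermediate filaments, VIM included, 6 were tested and 0 called with all libraries, with a median log2 change of -0.25. NES, the nestin of progenitor cells, had the largest log2 change. It was at 89.4, 88.0 and 39.8 FPKM in siC and at 24.3, 22.9, 28.9 and 27.2 FPKM in siIGF2BP1, without overlap (log2 change -1.40, limma adjusted p = 0.0232). NES was called lower without siC replicate 3 (log2 change -1.78, limma adjusted p = 0.000364), where 2 of the 6 genes were called lower, against 6.67% of all genes.

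ZEB1 (ENSG00000148516, chr10:31318495-31529814, plus strand), a repressor of CDH1, was at 4.30, 4.85 and 5.29 FPKM in siC replicates 1 to 3, and at 4.58, 5.20, 4.27 and 4.50 FPKM in siIGF2BP1 replicates 1 to 4. The groups overlapped over nearly their whole range (log2 change -0.052, interval -0.29 to 0.19, limma adjusted p = 0.802). Without siC replicate 3 the log2 change was 0.017 (interval -0.22 to 0.25, limma adjusted p = 0.919). An antisense transcript, ZEB1-AS1, overlaps exons of ZEB1 and held 330 reads over the 7 libraries, against 490 to 1345 reads on ZEB1 in each.

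SNAI2 (ENSG00000019549, chr8:48917598-48921740, minus strand), the repressor also known as Slug, had 2 reads in siC replicate 1 (0.0416 FPKM) and 0 reads in the other 6 libraries. A count of 0 allows up to 3 reads, or from 0.0425 to 0.105 FPKM in these libraries, so a change of SNAI2 was not detectable at this depth. These limits cover counting error only.

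Of 17 factors that can drive the transition, ZEB1 and SNAI2 among them, 3 were listed at 0 in every library (TWIST1, TWIST2 and GSC). Of the rest 6 were tested, with a median log2 change of -0.093. SNAI1 was from 1.61 to 2.69 FPKM (log2 change 0.050, limma adjusted p = 0.909, and -0.031, limma adjusted p = 0.934, without siC replicate 3), and ZEB2 reached at most 0.0123 FPKM. SOX9, which also marks bile duct and progenitor cells, was the 1 factor of the 6 called lower, against 2.28% of all genes. It was at 29.6, 28.4 and 36.9 FPKM in siC and at 18.3, 18.4, 19.3 and 19.4 FPKM in siIGF2BP1. SOX9 fell by 0.73 (limma adjusted p = 0.00512), and by 0.62 without siC replicate 3 (limma adjusted p = 0.000672), the 1 of the 7 fits leaving out a library in which it passed.

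The list of mesenchymal genes moved in both directions. Of its 31 genes 13 were tested, 2 were called lower (TAGLN and TPM1) and 2 higher, among them NT5E, with a median log2 change of 0.26. Of all genes tested 2.28% were lower and 1.65% higher. Without siC replicate 3, 4 were called lower and 4 higher, with a median of -0.11, against 6.67% lower and 3.59% higher of all genes. Called there in addition were MMP14 (log2 change -0.50) and FN1 (-0.25) as lower and SPARC (0.74) and LOX (0.26) as higher, with limma adjusted p = 0.00208, 0.00556, 0.00919 and 0.00387. TAGLN and TPM1 encode actin-binding proteins. TAGLN fell by 2.36 (limma adjusted p = 0.00358) and TPM1 by 0.49 (limma adjusted p = 0.00880), and they passed in 2 and 1 of the 7 fits that left out a library. Without siC replicate 3 their log2 changes were -2.53 and -0.55 (limma adjusted p = 0.00422 and 0.00272). TAGLN averaged 2.29 FPKM in siC and 0.366 FPKM in siIGF2BP1, with 26, 19, 18 and 25 reads in siIGF2BP1 replicates 1 to 4. It met the filter of 1 FPKM through siC alone, so its call as lower is not independent of the filter. NT5E, the surface nucleotidase CD73, was at 11.8, 11.5 and 11.4 FPKM in siC and at 21.8, 22.1, 20.3 and 20.8 FPKM in siIGF2BP1, and rose by 0.87 (limma adjusted p = 0.000489), and by 0.86 without siC replicate 3 (limma adjusted p = 0.000407). It passed in 7 of 7 fits that left out a library.

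In the list of progenitor and bile duct genes (10 genes, 7 tested, median log2 change -0.19) 2 were lower and 0 higher, against 2.28% and 1.65% of all genes. Beside SOX9 this was PROM1, which encodes the progenitor antigen CD133. PROM1 was at 31.3, 33.2 and 32.6 FPKM in siC and at 19.0, 19.3, 18.8 and 20.1 FPKM in siIGF2BP1. It fell by 0.74 (limma adjusted p = 0.000645), with the same value without siC replicate 3 (limma adjusted p = 0.000459), and passed in 7 of 7 fits that left out a library. siC replicate 3 was at 101% of the other siC libraries for PROM1 and at 97.7% for NT5E, against 65.3% for CDH1 and 190% for KRT18.

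**Figure D3:**
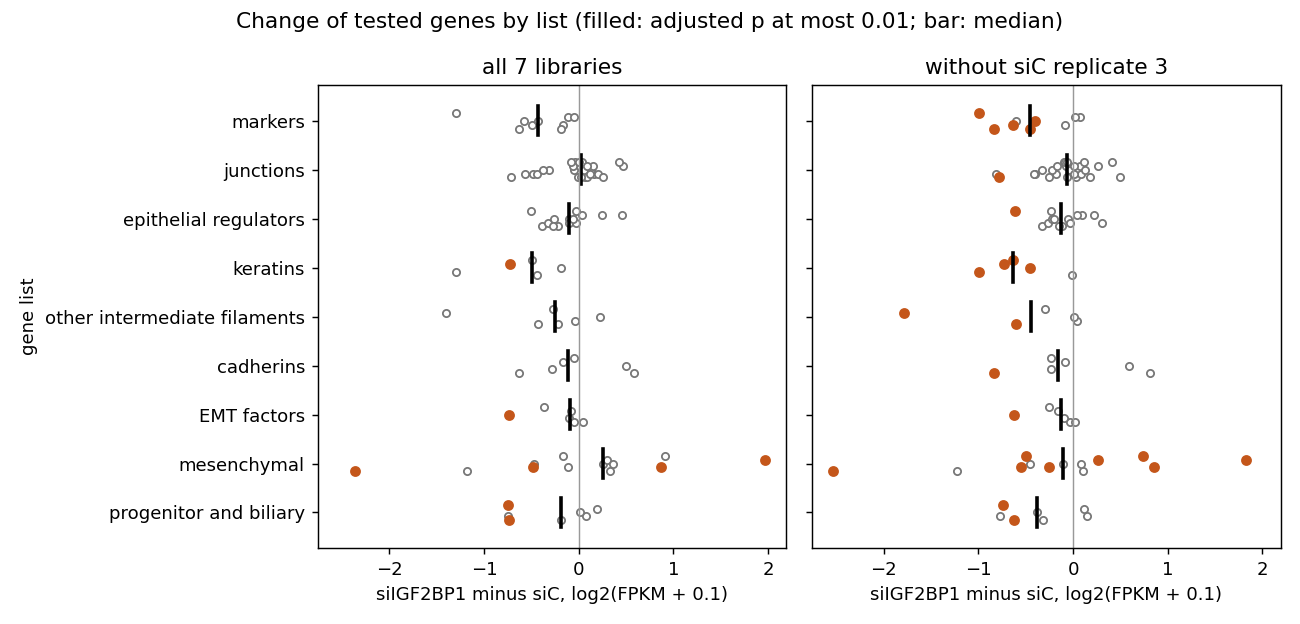
Log2 change (siIGF2BP1 minus siC) of every tested gene of the markers and of 8 gene lists, with all 7 libraries (left) and without siC replicate 3 (right), where filled points passed a limma adjusted p of 0.01 and bars are medians. In the keratin list, which shares KRT8, KRT18 and KRT19 with the markers, all 5 points lie below 0 on the left with 1 filled. On the right 4 are filled.

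Genes that mark other cell types were also measured. Of the fibroblast list 3 of 9 genes were tested and PDGFRA was called higher, against 1.65% of all genes. PDGFRA went from 2.39 ± 0.0735 FPKM (SD, n = 3) to 3.63 ± 0.232 FPKM (SD, n = 4), a log2 difference of 0.58 (limma adjusted p = 0.00662). It passed in 1 of the 7 fits that left out a library, the one without siC replicate 3 (0.60, limma adjusted p = 0.00527). LUM was lower in every siIGF2BP1 library than in any siC library without passing (log2 change -0.38, limma adjusted p = 0.0235, and -0.32, limma adjusted p = 0.0182, without siC replicate 3). COL1A2 passed in neither of these fits (log2 change 0.33, limma adjusted p = 0.437, and 0.11, limma adjusted p = 0.718). The sum over the list ran from 11.6 to 12.1 FPKM in siC and from 11.5 to 12.2 FPKM in siIGF2BP1. Of the leukocyte list 2 of 7 were tested, CD14 (log2 change 1.33, limma adjusted p = 0.0338) and LYZ (-0.37, limma adjusted p = 0.0222), with log2 changes of 0.96 and -0.42 without siC replicate 3 (limma adjusted p = 0.00984 and 0.00502). CD14 averaged 0.892 FPKM in siC and 2.25 FPKM in siIGF2BP1. It met the filter of 1 FPKM through siIGF2BP1 alone, so its rise is not independent of the filter. The sum of the leukocyte list, nearly all LYZ, ran from 148 to 164 FPKM in siC and from 115 to 131 FPKM in siIGF2BP1. Of the endothelial list PECAM1 was tested (log2 change 0.097, limma adjusted p = 0.590, and 0.039, limma adjusted p = 0.792, without siC replicate 3), at a sum of 2.59 to 3.08 and 2.86 to 3.30 FPKM. Of the hepatocyte list all 10 were tested and 0 called, with log2 changes of 0.79 for TF and -0.49 for TTR (limma adjusted p = 0.0529 and 0.133), and a sum from 5868 to 7306 FPKM in siC and from 6622 to 6793 FPKM in siIGF2BP1. Of the hepatocyte genes 3 were lower and 1 higher without siC replicate 3, against 6.67% lower and 3.59% higher of all genes. The log2 changes in that fit were 0.51 for TF and -0.71 for TTR (limma adjusted p = 0.000717 and 0.00447). In bulk RNA, fewer cells of a type and less RNA per cell cannot be told apart.

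The order of the markers by mean FPKM, a scale per length, was KRT8, CLDN1, KRT18, KRT19, CDH2, EPCAM, CDH1, VIM, ZEB1 and SNAI2 in siC. In siIGF2BP1 KRT19 preceded KRT18, and the order was otherwise the same. Neighbours whose ranges overlapped, and which are thus not separated by the spread of the libraries, were CDH2 with EPCAM and CDH1 with VIM in both groups and KRT19 with KRT18 in siIGF2BP1.

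**Figure D4:**
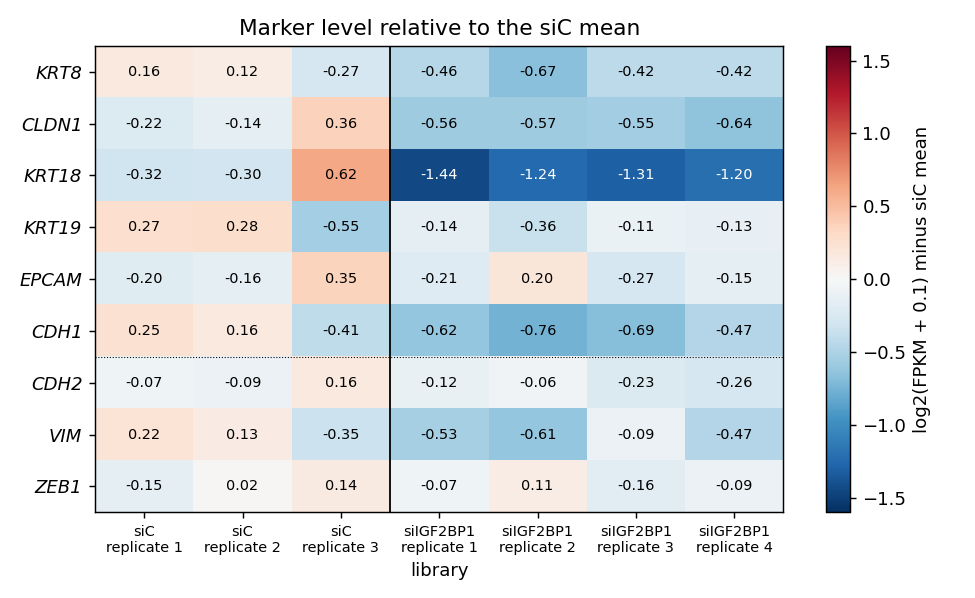
Level of each tested marker in each library as log2(FPKM + 0.1) minus the siC mean, in red above and in blue below it. In siC replicate 3 KRT18 (0.62), CLDN1 (0.36) and EPCAM (0.35) are above and KRT19 (-0.55), CDH1 (-0.41), VIM (-0.35) and KRT8 (-0.27) below the mean, and KRT18 is from -1.44 to -1.20 in siIGF2BP1.

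The deviation of siC replicate 3 from the other siC libraries did not follow the class of the marker. On the log2 scale it was 0.92 for KRT18, 0.54 for CLDN1, 0.53 for EPCAM, 0.24 for CDH2 and 0.21 for ZEB1, and -0.82 for KRT19, -0.61 for CDH1, -0.52 for VIM and -0.41 for KRT8. The GC content of the longest transcript was 61.8% for KRT19, 56.2% for KRT8, 55.7% for KRT18, 48.2% for CDH1, 46.9% for VIM, 44.3% for EPCAM, 43.1% for CDH2, 41.3% for CLDN1 and 38.4% for ZEB1. The 4 markers with the lowest GC content were above the other siC libraries and the 5 with the highest below, except KRT18. When the trend with GC content was removed from each library, the log2 changes were -1.27 for KRT18, -0.57 for CLDN1, -0.60 for CDH1 and -0.47 for KRT8 (limma adjusted p = 0.0272, 0.0137, 0.0355 and 0.00697).

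The profiles of KRT18 and CLDN1, the 2 tested markers with the smallest unadjusted p, were compared with those of all tested protein-coding genes by the root mean square difference of centred log2 values over the 7 libraries. The nearest to KRT18 were HIST1H3A (0.106), SLC35D1 (0.119) and TMEM33 (0.138). HIST1H3A belongs to a family of near-identical histone genes, so its reads are uncertain. The nearest to CLDN1 were TMEM106B (0.0392), SLC38A2 (0.0412) and TEAD1 (0.0448). SLC35D1 was at 21.2, 21.6 and 33.4 FPKM in siC and from 10.3 to 11.2 FPKM in siIGF2BP1, and was called lower (log2 change -1.21, limma adjusted p = 0.00505). TEAD1 was at 11.7, 12.1 and 16.9 FPKM in siC and from 8.16 to 8.56 FPKM in siIGF2BP1 (log2 change -0.66, limma adjusted p = 0.02002). In all 6 of these genes siC replicate 3 was the highest library, as it was for KRT18 and CLDN1. This follows from choosing genes by their likeness over the same libraries.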

How the data were processed

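The markers and gene lists were chosen with earlier results of these data known. Per the study's methods and the labels, the authors depleted ribosomal RNA, made directional libraries, clipped reads with cutadapt (version 1.14), aligned them to GRCh38 with HISAT2 (2.1.0), and summarized genes with featureCounts (1.5.3) and edgeR (3.18.1, TMM). The deposited values are FPKM, 1 column for each of the 7 libraries. The table also holds the authors' fold changes, p-values and FDR, which were not used.

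FPKM times gene length was a whole multiple of 1 read, within 0.05 reads, for 100% of values above 0, which gave reads per gene. The 14839 genes that averaged 1 FPKM or more entered a limma fit (3.58.1, R 4.3.3) with eBayes trend on log2(FPKM + 0.1), two-sided, without covariates, with Benjamini-Hochberg adjustment over all genes and a threshold of 0.01, the FDR of the study. This scale understates changes of genes with low values. The fit was tested on simulated reads with the same dispersion in every library, without a deviating library or a trend with GC content. That test says nothing on how the fit handles a library such as siC replicate 3. The 12 gene lists, written from general knowledge, are described by counts and medians, with no set test.

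Named from each list were genes past the threshold or, where there were none, the 2 largest changes. The nearest profiles were the 3 protein-coding genes with the smallest root mean square difference to each of the 2 markers with the smallest p. KRT10, LUM, COL1A2, MMP14, FN1, SPARC, LOX, CDH3, CDH11, ZEB2, SNAI1, CDH19 and the ratios were chosen after their values were seen. Alternatives were a pseudocount of 1, other filters, median centring, quantile normalization, array weights, voom on recovered reads, a replicate block, GC trend removal, a threshold of 0.05 and leaving out each library. Leaving out each library was planned, and the fit without siC replicate 3 was singled out after its deviation was seen. Leaving out siC replicate 3 and siIGF2BP1 replicate 2 together was chosen after seeing the data. Positions, overlaps and GC content are from GENCODE v44 (GRCh38, the build of the files). A result for 1 gene of the mesenchymal list is not reported here.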

Additional observations from a re-analysis of the deposited data

Results flagged for a closer look

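In siIGF2BP1, KRT8 was lowest in replicate 2 (226 FPKM, against 262 to 268 FPKM in the others), with a gap to the next library of 0.850 of the group's range. KRT19 was lowest in the same library (32.3 FPKM, against 37.5 to 38.4 FPKM), with a gap of 0.849 of the range. CLDN1 was lowest in replicate 4 (105 FPKM, against 110.0 to 111 FPKM), with a gap of 0.830. Each exceeded Dixon's 95% critical value for 4 samples. Of 28 genes examined in this way 3 exceeded it, and chance alone gives about 1.4. Without siIGF2BP1 replicate 2 the log2 changes of KRT8 and KRT19 were -0.43 and -0.13, and without replicate 4 that of CLDN1 was -0.56, and none of the 3 passed the threshold.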

How the results depend on the processing

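The 3 siC libraries set the limits here. The log2 changes of KRT18, CLDN1, CDH1, KRT8, VIM, KRT19 and CDH2 stayed negative under every alternative run, and those of EPCAM and ZEB1 turned positive without siC replicate 3 (0.070 and 0.017). SNAI2 could be fitted only without a filter. With array weights, whose estimation gave a convergence warning, 6 markers were called lower (log2 changes of -0.78 for CDH1, -0.55 for VIM, -0.58 for KRT8, -1.03 for KRT18, -0.43 for KRT19 and -0.44 for CLDN1), with voom 1 (KRT18, -1.31), after GC trend removal 1 (KRT8, -0.47) and at a threshold of 0.05, looser by construction, 2. Without siC replicate 3 and siIGF2BP1 replicate 2, chosen after seeing the data, 5 were called (CDH1 -0.79, KRT8 -0.57, KRT18 -1.01, KRT19 -0.40, CLDN1 -0.41). Over the fits that left out 1 library, the count of markers called lower ran from 0 to 5, and the log2 changes from -0.84 to -0.51 for CDH1, -0.63 to -0.42 for KRT8, -1.46 to -0.99 for KRT18, -0.46 to -0.046 for KRT19, -0.69 to -0.40 for CLDN1, -0.21 to 0.070 for EPCAM and -0.13 to 0.017 for ZEB1.

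Over all genes, the main counts of 338 lower and 245 higher became 513 and 467 after GC trend removal, 3245 and 2169 with array weights, 206 and 146 without a filter (more genes tested), 1010 and 703 at a threshold of 0.05, and 1043 and 562 without the 2 libraries. Without 1 library they ran from 53 to 990 lower and from 66 to 533 higher. Deviations of same-numbered libraries had correlations of -0.026, -0.12 and -0.11, against 0.20 between siC replicate 3 and siIGF2BP1 replicate 2. With so few libraries, and with these 2 deviating, the correlations cannot show whether the numbers pair the libraries. With the replicate block 0 genes were lower and 0 higher, and 0 markers were called. In that fit siIGF2BP1 replicate 4 had no siC library of its number and did not inform the change. The depleted gene IGF2BP1 itself did not pass there (log2 change -2.36, limma adjusted p = 0.0909). The lack of calls with the block is thus not particular to the markers. The cause of these moves was not tested.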
